A study of Mus musculus with 44 samples.

Results

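The comparison described here set the deafferented cochlear nucleus against the control nucleus 12 h after mice lost 1 cochlea at postnatal day 7 (P7). It was chosen by the sample titles and holds 6 of the 44 arrays of the series, 3 from deafferented and 3 from control nuclei. The whole series covered 6 to 48 h after removal of a cochlea at P7 or at P21. Deafferented nuclei lay on the side of the removed cochlea. Control nuclei came from the opposite side of the operated mice, so both groups had been through the operation and a difference may lie in either nucleus. No unoperated group was analysed here. Each array held a separate pool of tissue, and the labels used here give neither the strain nor the number of mice per pool.

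Fibres of the auditory nerve enter the brain at the cochlear nucleus, where they end on bushy, stellate and other neurons. Removing the cochlea takes away the cell bodies of these fibres and silences the input. In young mice a large share of the neurons then dies within days, whereas in older mice the neurons survive, and microglia and astrocytes of the nucleus react at both ages. The nucleus borders on the lateral recess of the fourth ventricle with its choroid plexus, is covered by meninges, and lies beside the cartilage and bone of the ear capsule, so a dissected piece can carry RNA of each of these tissues.

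Levels are GCRMA values on a log2 scale, on which a step of 1 is a doubling, and changes are deafferented minus control. Values at or below log2 5 were treated as dim. Of the 22626 probe sets, 15323 lay above that limit in at least 2 of the 44 arrays and were tested, and they represent 8886 named genes. The median level of the 6 arrays lay between 5.99 and 6.07, within the range of 5.96 to 6.16 over all 44 arrays.

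Replicate 3 stood apart on both sides. Over all probe sets, control arrays 1 and 2 correlated at r = 0.995 and each correlated with control array 3 at 0.983 and 0.984. Deafferented arrays 1 and 2 correlated at 0.994 and each with array 3 at 0.979 and 0.980. The arrays numbered 3 were closest to each other, at 0.990. At a margin of 1 log2 unit from the mean of the other 2 arrays, 199 genes differed in replicate 3 on both sides, all 199 of them in the same direction, 59 higher and 140 lower. The lower genes included 11 of the 18 choroid plexus genes. Deafferented array 3 stood farthest out, with 60 genes at least 1 log2 unit below all 5 other arrays and 13 above, where no other array had more than 8 in either direction. The 13 include Myl1, Ttn and Myh3, genes of the contractile apparatus of muscle. Deviations from the group means ran together in arrays of the same number, with correlations over probe sets of 0.59, 0.35 and 0.68 for numbers 1, 2 and 3. Deafferented array 2 correlated at 0.37 with control array 1, slightly more than with its own partner. Sex-linked genes moved with the numbers too. Eif2s3y, a Y-linked gene, was at 7.61, 6.31 and 7.68 in controls 1, 2 and 3 and at 7.34, 6.43 and 7.37 in deafferented arrays 1, 2 and 3. Xist, which is made from the inactive X chromosome, was at 9.44 and 8.75 in the arrays numbered 3 and between 10.57 and 11.00 in the other 4. Differences within each numbered pair are therefore given beside the means.

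**Figure D1:**
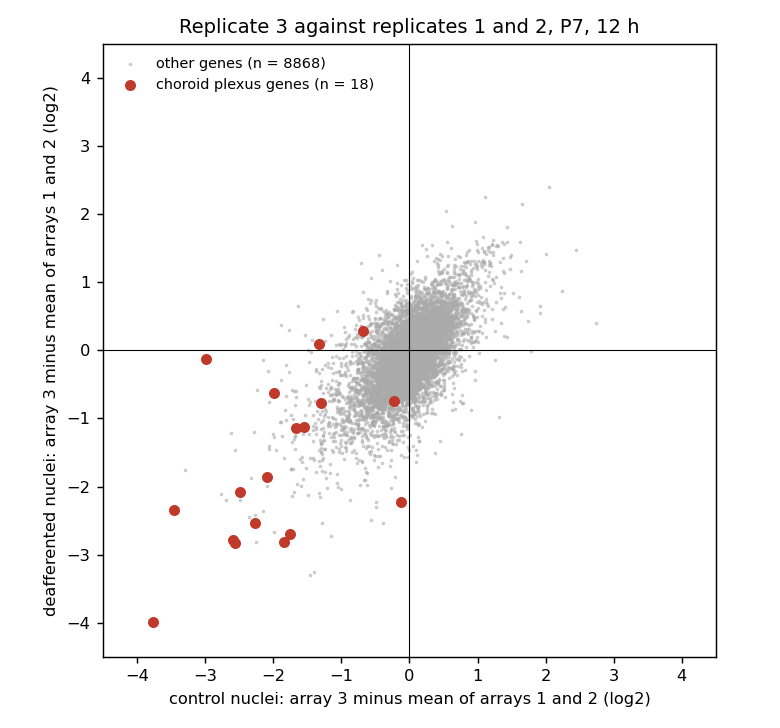
Each point is 1 gene, with the difference of array 3 from the mean of arrays 1 and 2 in control nuclei on the horizontal axis and in deafferented nuclei on the vertical axis, both in log2 units. The cloud runs from lower left to upper right, and most of the 18 choroid plexus genes (red) lie at the lower left, low in replicate 3 on both sides.

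The genes that passed the test were lower in deafferented nuclei and are best known from stomach, muscle, fat and cartilage. With limma over all 44 arrays and Benjamini-Hochberg adjustment, 3 of 15323 probe sets passed at an adjusted p of 0.05 (0.0196%), and all 3 were lower. They were Lipf, which encodes gastric lipase, Car3, a carbonic anhydrase of muscle and fat, and Col2a1, the main collagen of cartilage. None was higher, and 449 probe sets had an unadjusted p under 0.05 in either direction. In dissected pieces such as these, fewer cells of a type and less RNA per cell cannot be told apart. Among the 8886 genes, 2.01% were lower and 1.25% higher at that unadjusted level.

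Lipf was at 7.42, 1.68 and 5.98 in controls 1, 2 and 3 and at 1.60, 1.68 and 1.84 in the deafferented arrays. Control arrays 1 and 3 were high and control array 2 was level with its partner, so the groups overlap. The mean change was -3.32 ± 0.62 (SE, n = 3 per group), with a limma adjusted p of 0.0316. Control array 2 and the 3 deafferented arrays were dim, so no fold is given. Over the other 38 arrays of the series Lipf never exceeded 1.90, so the 2 control arrays were the only ones that brought it through the filter on dim values.

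Car3 was at 7.52, 5.27 and 9.13 in controls and at 4.42, 4.59 and 4.91 in deafferented nuclei, without overlap. Its change was -2.67 ± 0.49, with a limma adjusted p of 0.0316. All 3 deafferented arrays were dim for Car3, so no fold is given. Pair differences were -3.09, -0.68 and -4.22, so pair 2 contributed least. Col2a1 was at 8.89, 6.66 and 8.74 in controls and at 5.86, 6.38 and 5.68 in deafferented nuclei, again without overlap and again with controls 1 and 3 highest. Its change was -2.13 ± 0.40, 4.37-fold lower, with a limma adjusted p of 0.0316, and its pair differences were -3.03, -0.29 and -3.06.

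The calls rest on how the spread is estimated. The fit takes it from all 16 groups, whereas the SD among the 3 controls alone was 2.98 for Lipf, 1.94 for Car3 and 1.24 for Col2a1. With the 6 arrays of this comparison alone, limma called 0 probe sets, and 265 had an unadjusted p under 0.05. With the 22 P7 arrays it also called 0, with 297 at an unadjusted p under 0.05. Leaving out control array 1, or deafferented array 1, 2 or 3, left 0 calls. Leaving out control array 2, the array without these high values, gave 9 calls, all lower. Leaving out control array 3 gave 1 call, a probe set that matches several genes. That probe set was at 6.00 and 6.19 in controls 1 and 2 and between 3.54 and 3.93 in the other 4 arrays.

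A group of 8 genes shared this pattern, being at least 1 log2 unit higher in controls 1 and 3 than in each of the other 4 arrays. They were picked after their values were seen, so the pattern is a description with no test of its own. Beside Lipf, Car3 and Col2a1 they are Bpifa1, a secreted protein of airway epithelium, Ibsp, the bone sialoprotein, and Ctsk, Acp5 and Mmp9, enzymes with which osteoclasts resorb bone. Bpifa1 was at 8.60, 3.02 and 7.73 in controls and at 3.03, 2.99 and 3.66 in deafferented nuclei. Ibsp was at 7.89, 4.30 and 6.04 in controls and at 2.93, 3.20 and 3.65 in deafferented nuclei, with no overlap between the groups. Ctsk was at 8.07, 5.30 and 6.55 against 4.98, 4.20 and 4.84, also without overlap. Acp5, the tartrate-resistant acid phosphatase, was at 8.37, 5.21 and 6.58 against 5.34, 5.20 and 5.10. Mmp9, a gelatinase, was at 6.65, 3.86 and 5.48 against 3.65, 3.68 and 3.97. Mmp13, the collagenase of growth cartilage and bone, was high in control array 1 only, at 5.90, with 2.59 to 3.26 in the other 5 arrays. Other cartilage and inner ear genes were highest in control array 3. There Epyc, a proteoglycan of cartilage and inner ear, was at 6.76 against 3.78 to 5.38 elsewhere, and Col9a1 was at 8.22 against 6.58 to 7.16. Otor, a secreted protein of the inner ear, was at 7.14 in control array 3 and between 2.25 and 2.63 in the other 5, and did not pass the filter on dim values.

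**Figure D2:**
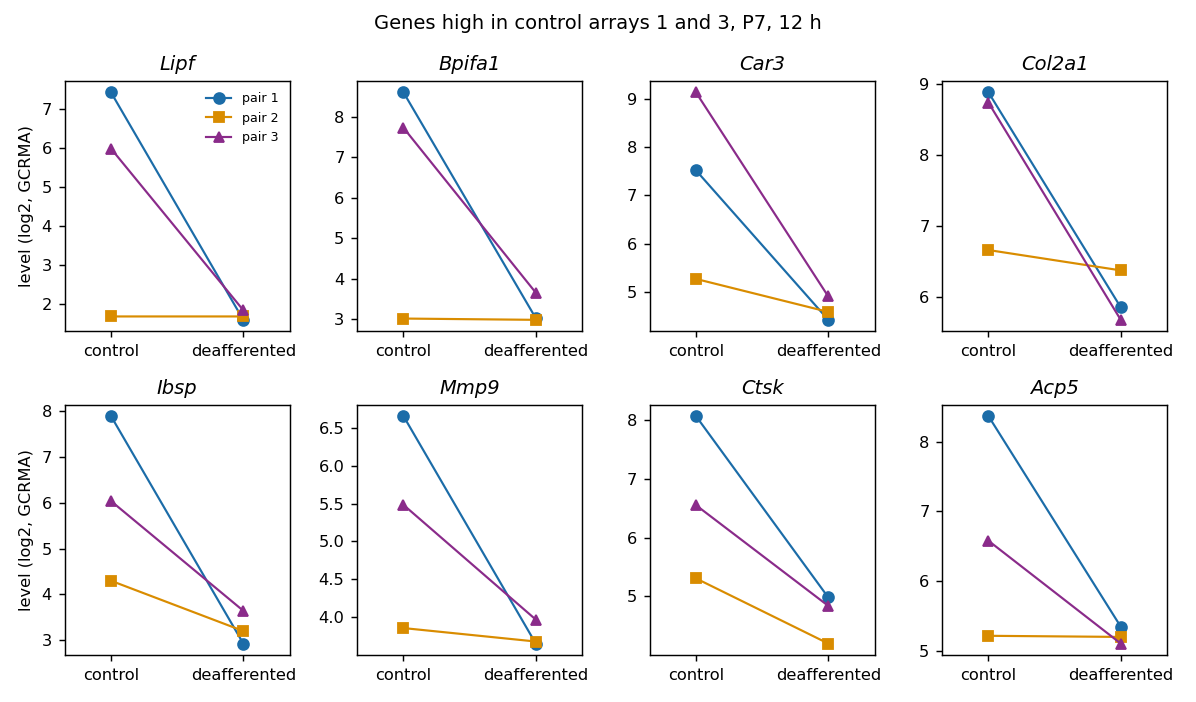
Log2 levels of the 8 genes in control and deafferented nuclei, with a line joining the arrays of each pair (pair 1 blue circles, pair 2 orange squares, pair 3 purple triangles). Pairs 1 and 3 run steeply downwards from high controls, and pair 2 starts low, with Lipf at 1.68 on both sides. Each panel has its own vertical scale.

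The highest values in the other 38 arrays of the series were 4.60 for Bpifa1, 7.18 for Car3, 7.24 for Col2a1 and 6.39 for Ctsk, each below both of these controls. Ibsp reached 6.71 in a deafferented nucleus 24 h after removal at P7, above its level in control array 3. At 6 h after removal at P7, with 2 arrays per group, the bone and cartilage genes were again higher in control nuclei. Col2a1 lay at 7.11 to 7.21 in those controls and at 5.84 to 5.88 in the deafferented arrays, Ctsk at 5.86 to 6.39 against 4.07 to 4.63, and Ibsp at 4.67 to 6.34 against 3.05 to 3.22. None of these changes at 6 h passed limma's adjusted threshold. At 24 h Ibsp was 1.28 higher and Col2a1 0.18 higher in deafferented nuclei, neither of which passed. Mmp9 differed by 0.07 and Lipf by 0.005, whereas Car3 differed by -1.18, Bpifa1 by -0.86, Acp5 by -0.62 and Ctsk by -0.27. At 48 h all 8 genes had a negative change, from -0.78 for Car3 to -0.02 for Lipf, and limma called 0 probe sets. Lipf lay between 1.66 and 1.77 at 6 h on both sides.

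Taking the numbered pairs as a block in the same model over all 44 arrays raised the number of calls to 8 (0.0522%), of which 7 were lower (0.0457%) and 1 was higher. The lower ones were Lipf, Car3, Col2a1, Bpifa1 (adjusted p = 0.0358), Ctsk (0.0133), Lum and Slc4a2, and the higher one was Ptgds. Like Lipf, Bpifa1 was above log2 5 in 2 of the 44 arrays, controls 1 and 3, and entered the test through them alone. Ibsp missed the threshold with the block, at 0.0680.

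Lum, which encodes lumican, a proteoglycan of fibrous connective tissue, differed evenly between pairs. It was at 7.62, 7.38 and 7.60 in controls and at 5.98, 5.81 and 5.97 in deafferented nuclei, a gap far wider than the spread within either group. The change was -1.61 ± 0.35, 3.06-fold lower, with pair differences of -1.64, -1.57 and -1.63 (SD 0.039). Limma's adjusted p was 0.101 without the block and 0.0372 with it. Slc4a2, an anion exchanger abundant in choroid plexus epithelium, was at 8.67, 8.50 and 7.04 in controls and at 7.41, 7.24 and 6.20 in deafferented nuclei. Replicate 3 was low on both sides and the groups overlap, and the pair differences were -1.26, -1.26 and -0.85. Its limma adjusted p was 1 without the block and 0.0136 with it.

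Ptgds, the prostaglandin D synthase of meninges and choroid plexus, was the only gene called higher. It was at 12.84, 12.91 and 13.41 in controls and at 13.49, 13.90 and 13.86 in deafferented nuclei, without overlap. The change was 0.69 ± 0.25, with pair differences of 0.65, 0.98 and 0.45, and limma's adjusted p was 1 without the block and 0.0133 with it. A second probe set of the gene differed by 0.49 and missed the threshold with the block, at 0.0911.

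When only the 6 arrays were fitted with the pair as a block, 6 probe sets were called (0.0392%), all lower, namely Aqp1, Kcne2, Lum, Cldn2, Cab39l and Lbp. This fit has 2 residual degrees of freedom. Lum was the only gene that both blocked fits called. Aqp1, Kcne2, Cldn2 and Lbp belong to the choroid plexus list. Cab39l, which encodes a scaffold of the kinase LKB1, was at 9.06, 9.29 and 7.47 in controls and at 7.80, 8.13 and 6.22 in deafferented nuclei, and a second probe set of it differed by less, -0.58 against -1.23.

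Choroid plexus genes had the median change farthest from 0 among the 41 lists. All 18 measured genes had a negative mean change, 13 of them were lower in 3 of 3 pairs, where 13.4% of all genes were, and the median change was -1.24 against 0.00 over all 8886 genes. The choroid plexus is the secretory epithelium that makes cerebrospinal fluid. None of its genes passed limma's test without the block, and only Slc4a2 passed with the pairs as a block. Aqp1, the water channel of the plexus, was at 9.63, 9.84 and 5.97 in controls and at 7.42, 8.05 and 3.75 in deafferented nuclei. Replicate 3 was low on both sides, and the pair differences of -2.21, -1.79 and -2.23 were alike. Kcne2, a potassium channel subunit of the same epithelium, was at 9.39, 9.72 and 6.95 against 7.25, 8.12 and 4.89, with pair differences of -2.13, -1.60 and -2.06. Limma's adjusted p for both was 1 without the block, and 0.507 for Aqp1 and 0.576 for Kcne2 with the block over all arrays. In the blocked fit of the 6 arrays alone it was 0.00798 for both.

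The other plexus genes varied in size of change, and of those named next only Cldn2 and Lbp passed in any fit, the blocked fit of the 6 arrays. Folr1, a folate receptor, differed by -1.44 with pair differences of -1.78, -0.91 and -1.62, and Kl, the hormone co-receptor Klotho, by -1.69 with -2.67, -1.45 and -0.94. Cldn2, the claudin of leaky tight junctions, differed by -1.63, Sostdc1 by -1.83, Calml4 by -1.55, Col8a1 by -1.49 and Lbp by -1.23, and each of these was lower in 3 of 3 pairs. A second probe set of Sostdc1 differed by -1.17 with 1 pair higher. Otx2, the transcription factor that specifies the plexus, differed by -0.45. Ttr, the thyroxine carrier transthyretin and the most abundant plexus transcript, lay near the top of the scale, at 14.89, 14.63 and 14.64 in controls and at 14.72, 14.81 and 12.54 in deafferented nuclei. Only deafferented array 3 was low, and pair differences for Ttr were -0.17, 0.18 and -2.10.

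**Figure D3:**
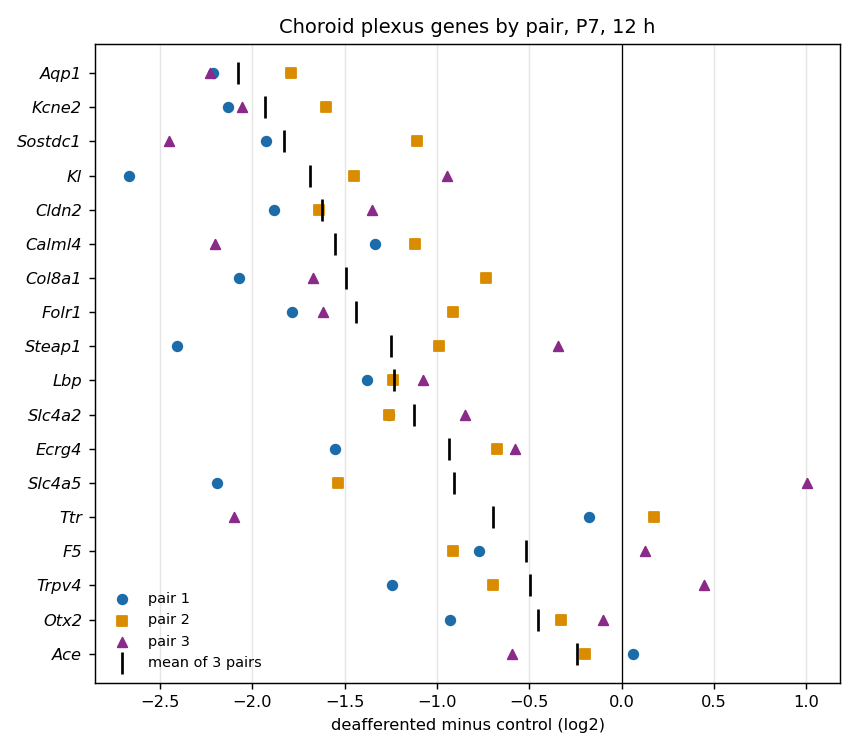
Deafferented minus control difference in log2 units for the 18 choroid plexus genes, 1 row per gene, with a marker for each pair and a black tick for the mean of the 3 pairs. Most markers lie left of 0, pair 3 of Slc4a5 lies at 1.00, and Ttr is far below 0 in pair 3 only.

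The mean log2 level of the 18 plexus genes was 8.75, 8.79 and 6.85 in controls and 7.20, 7.79 and 5.81 in deafferented nuclei. Both groups were lowest in replicate 3. The medians of the pair differences were -1.67, -1.05 and -1.01. The median SD of a gene was 0.552 over the 3 pair differences, 1.11 over the 3 controls and 1.15 over the 3 deafferented arrays. The summed linear level of the list ran from 27665 to 38873 in controls and from 7087 to 33204 in deafferented nuclei. Ttr weighs most in this sum and was low only in deafferented array 3, so the sum says little about the other genes. Of the 18 genes, 1 was at or below log2 5 in all 6 arrays. Without deafferented array 3 the median change was -0.63, without control array 3 it was -1.92, without deafferented array 2 it was -1.67, and without replicate 3 of both sides it was -1.33. How much plexus each dissected piece held was not tested.

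The cartilage, bone and inner ear list had a median change of -0.44 over 13 measured genes of 24 on the array. All 13 had a negative mean change and 7 were lower in 3 of 3 pairs, against 13.4% of all genes. Of the 13, 1, Col2a1, passed the test. The pair medians were -0.69, -0.02 and -0.35, so pair 2 showed next to nothing. Col9a3, a cartilage collagen, differed by -0.86 and Col11a1, another, by -0.60, and neither passed. A second probe set of Col11a1 differed by -1.09 and was lower in 3 of 3 pairs. It did not pass with all arrays, but was 1 of the 9 calls without control array 2 (limma adjusted p = 0.0348). The summed linear level ran from 1792 to 2953 in controls and from 1102 to 1465 in deafferented nuclei, so control array 2 lay closest to the deafferented arrays. Of the 24 genes, 10 were at or below log2 5 in all 6 arrays. The part of such tissue in the calls of Col2a1, Car3 and Lipf was not tested.

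Genes of the meninges split. Of 26 measured, 7 were higher and 6 lower in 3 of 3 pairs, against 16.2% and 13.4% of all genes. The median change was 0.01. Lum was the lowest, and the fibrillar collagens Col1a2, Col3a1 and Col1a1 differed by -0.48, -0.43 and -0.58. Ptgds and Ccn3 were the highest. Ccn3, a matricellular protein, was at 7.86, 8.35 and 8.42 in controls and at 9.64, 9.05 and 9.38 in deafferented nuclei, without overlap. Its change of 1.14 did not pass (limma adjusted p = 1, and 0.356 with the block). The summed linear level of the meningeal genes ran from 28094 to 28374 in controls and from 29367 to 34317 in deafferented nuclei. Bright genes weigh most in such a sum, Ptgds among them, at 12.84 to 13.41 in controls and 13.49 to 13.90 in deafferented nuclei. The mean log2 level of the 26 genes overlapped between the groups. It was 8.60, 8.60 and 8.64 in controls and 8.63, 8.80 and 8.46 in deafferented nuclei.

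Muscle genes had a median change of 0.25 over 10 measured genes of 24, with 4 higher in 3 of 3 pairs, where 16.2% of all genes were, and none called. Myl1, a myosin light chain, was at 4.31, 4.26 and 4.74 in controls and at 4.67, 4.76 and 6.13 in deafferented nuclei, so deafferented array 3 was high and the others were dim. Of the 24 muscle genes, 15 were at or below log2 5 in all 6 arrays. Schwann cell and peripheral nerve genes had a median of -0.19. Ncmap, a protein of peripheral myelin, was at 5.03, 5.66 and 5.78 in controls and at 4.71, 4.86 and 4.96 in deafferented nuclei. Erbb3, the neuregulin receptor of Schwann cells, differed by -0.63 with overlap.

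On the higher side, no gene passed limma's test without the block. The 10 genes whose smallest pair difference was largest were Ccl12, Ifrd2, P2ry14, Ccn3, Lcorl, Egfbp2, 4930430F08Rik, Zbtb8a, Bbc3 and Cplx2, with changes from 0.57 to 1.14. Ccl12, a chemokine that draws monocytes, was at 3.08, 2.85 and 3.04 in controls and at 3.86, 4.03 and 4.29 in deafferented nuclei. The groups do not overlap, but all 6 arrays were dim for Ccl12, and its change of 1.07 did not pass (limma adjusted p = 1, and 0.632 with the block). Bbc3, which encodes Puma, a p53 target that triggers apoptosis, was at 6.83, 6.62 and 6.39 in controls and at 7.51, 7.15 and 6.996 in deafferented nuclei, without overlap. Its pair differences were 0.68, 0.54 and 0.61, and its change of 0.61 ± 0.22 did not pass (limma adjusted p = 1, and 0.341 with the block). Cplx2, the synaptic protein complexin 2, was at 7.54, 7.72 and 6.93 against 8.08, 8.23 and 7.78, also without overlap. In all, 277 of 8886 genes (3.12%) were higher and 278 (3.13%) lower without overlap between the groups.

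**Figure D4:**
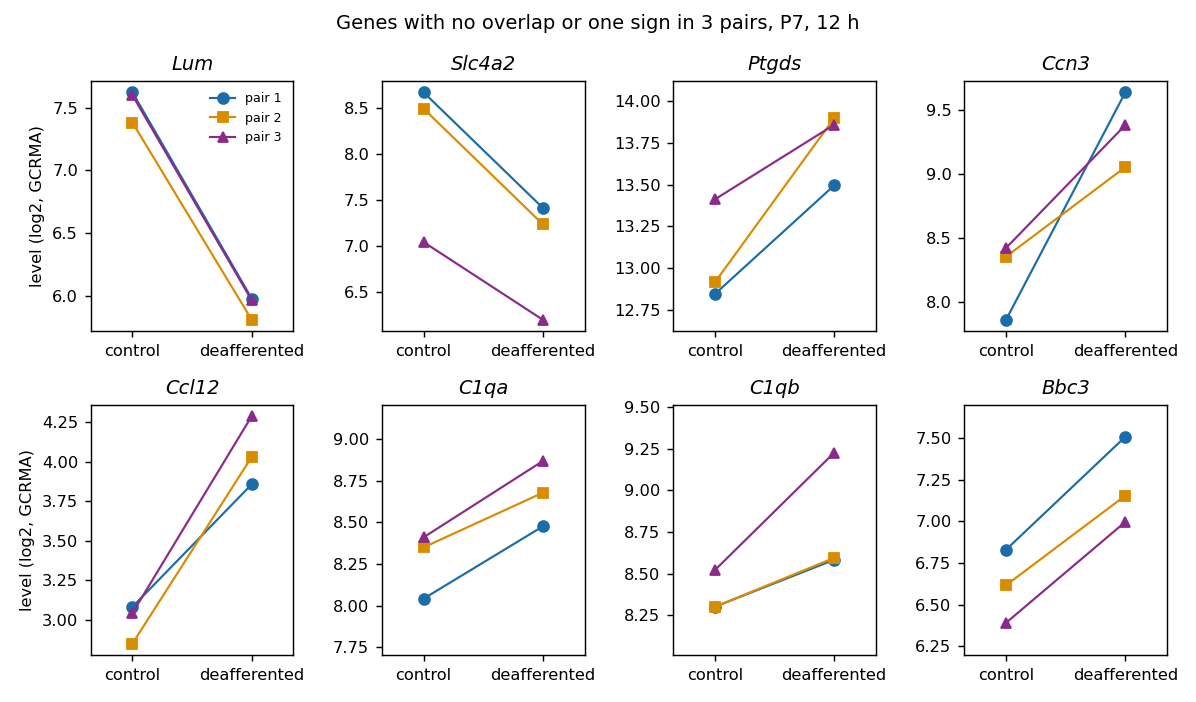
Log2 levels of Lum, Slc4a2, Ptgds, Ccn3, Ccl12, C1qa, C1qb and Bbc3 in control and deafferented nuclei, with a line joining the arrays of each pair. The 3 lines of Lum and of Slc4a2 run downwards and those of the other 6 genes run upwards, and each panel has its own vertical scale.

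Microglial genes leaned higher by a small amount. Their median change was 0.24 over 23 measured genes, 11 were higher and 1 lower in 3 of 3 pairs, and none passed. Over all genes the shares in 3 of 3 pairs were 16.2% higher and 13.4% lower. C1qa, a chain of the complement starter C1q, was at 8.04, 8.35 and 8.41 in controls and at 8.48, 8.68 and 8.87 in deafferented nuclei. C1qb was at 8.30, 8.30 and 8.52 against 8.58, 8.59 and 9.22. Neither gene overlapped between the groups, and the changes were 0.41 and 0.43 (limma adjusted p = 1 for both). Cd53, a tetraspanin of leukocytes, differed by 0.57, and Trem2, a lipid receptor of microglia, by 0.49, both with overlap. Tmem119, a marker of resting microglia that bone-forming cells also make, went the other way by -0.77. It was at 6.56 in control array 1 and at 4.22 in deafferented array 3, and between 5.31 and 5.49 in the other 4. Without replicate 3 of both sides the microglial median was 0.15. Over 12 measured cytokines and chemokines the median was 0.16, with 5 higher and 0 lower in 3 of 3 pairs. Of 23 such genes on the array, 14 were at or below log2 5 in all 6 arrays. Ccl3, a chemokine of activated microglia, differed by -0.01 and was dim in all 6 arrays, at 2.77 to 3.15. Cd68, a lysosomal protein of phagocytes, was at 5.81, 5.75 and 5.09 in controls and at 6.11, 4.63 and 6.23 in deafferented nuclei, with pairs of opposite sign.

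Astrocyte genes had a median of 0.03 and reactive astrocyte genes of 0.11, with none called. Gfap, the filament protein of astrocytes, was at 10.04, 10.23 and 8.45 in controls and at 10.51, 10.33 and 9.11 in deafferented nuclei. Replicate 3 was low on both sides, and the pair differences of 0.46, 0.10 and 0.67 did not pass (limma adjusted p = 1). Without control array 3 its change was -0.15 in place of 0.41. Sphk1, a sphingosine kinase induced in reactive astrocytes, differed by 0.62 without overlap and Emp1, another reactive marker, by -0.89 with overlap. Timp1 differed by 0.29 and lay between 4.40 and 5.32.

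Genes of the injury response to axotomy or lost input had medians near 0, and more were higher than lower in 3 of 3 pairs. Immediate early genes, which neurons switch on within minutes of a stimulus, had a median of 0.08. Of 21, 9 were higher and 2 lower in 3 of 3 pairs, against 16.2% and 13.4% of all genes. Fos was at 7.37, 7.64 and 7.85 in controls and at 7.50, 7.39 and 7.11 in deafferented nuclei. Jun differed by 0.17, Atf3 by 0.19 and Egr1 by 0.15, all with overlap, and Atf3 was dim in all 6 arrays. Axon injury and growth genes had a median of 0.08 over 31, with 11 higher and 1 lower in 3 of 3 pairs. Among them Sema3a, a repulsive guidance cue, was at 6.24, 6.31 and 6.50 in controls and at 6.79, 6.77 and 6.84 in deafferented nuclei. Stmn2, a microtubule regulator of growing axons, differed by 0.18 and Marcksl1 by 0.27, also without overlap, and Gap43 by 0.22 with overlap. Other probe sets differed by 0.13 for Stmn2 and by 0.07, 0.11 and 0.05 for Marcksl1, each with 1 pair lower. None of these passed.

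Of the genes that decide between death and survival, 20 that promote apoptosis had a median of 0.01 and 16 that restrain it had a median of 0.01. Bcl2, the founding survival gene, differed by 0.05 and Casp2, a caspase, by 0.27. Targets of p53 had a median of 0.04 over 15 genes. Gadd45a, a stress sensor, was at 5.71, 5.85 and 6.54 in controls and at 6.34, 6.30 and 6.54 in deafferented nuclei, with a change of 0.36. Perp, another p53 target, differed by -0.61, so the members pointed both ways. Heat shock and oxidative stress genes had a median of 0.00. Hmox1, heme oxygenase 1, was at 7.08, 6.61 and 6.79 in controls and at 7.17, 8.25 and 7.29 in deafferented nuclei, without overlap but with most of its change of 0.75 in pair 2.

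Of 21 marker genes of cochlear nucleus and hindbrain neurons, 11 were at or below log2 5 in all 6 arrays. Among the brighter ones, Slc17a6, the vesicular glutamate transporter of the cochlear nucleus, lay at 11.1 to 11.5, the calcium buffers Pvalb and Calb2 at 10.9 to 11.2 and at 9.02 to 9.30, and the hindbrain gene Hoxa2 at 5.74 to 6.73. Slc6a5, the glycine transporter of inhibitory neurons, was dim at 2.89 to 3.29, as was the hindbrain gene Hoxb4 at 3.16 to 3.56. Barhl1, a transcription factor of cerebellar granule cells and of their migrating relatives, was at 7.78 to 9.19, and Gabra6, a receptor subunit of mature granule cells, at 6.12 to 6.97. Over 13 measured cochlear nucleus and hindbrain genes the median change was -0.13, with 1 higher and 3 lower in 3 of 3 pairs. The shares over all genes were 16.2% and 13.4%. Kcnc1, a fast potassium channel of auditory neurons, was at 6.88, 6.94 and 6.94 in controls and at 7.17, 7.43 and 7.32 in deafferented nuclei. Kcna1, a channel that keeps bushy cells to single spikes, differed by -0.44 with overlap. Calb1, a calcium buffer strong in Purkinje cells, differed by -0.89, with deafferented arrays 2 and 3 low. Glutamate receptor genes, genes of GABA and glycine transmission, voltage-gated channel genes and synaptic vesicle genes had medians of 0.03, 0.00, 0.00 and -0.02.

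Growth factors and their receptors had a median of -0.13 over 24 genes, with 1 higher and 6 lower in 3 of 3 pairs. Over all genes 16.2% were higher and 13.4% lower in 3 of 3 pairs. Igf1, a survival factor for young neurons, was at 8.67, 8.56 and 8.42 in controls and at 8.50, 8.19 and 7.62 in deafferented nuclei. Its change of -0.44 did not pass, and a second probe set differed by -0.16 with 1 pair higher. Genes of oligodendrocytes and myelin had a median of 0.02, cytosolic ribosomal protein genes of 0.07 and respiratory chain genes of 0.01. Of 32 ribosomal protein genes, 10 were higher and 0 lower in 3 of 3 pairs. Endothelial genes had a median of -0.12 and ependymal genes of -0.28, over 22 and 7 genes. Genes of neutrophils and lymphocytes had a median of 0.18 over 8, of which 6 had a positive and 2 a negative change. Cd3e, a chain of the T cell receptor complex, differed by 0.70 without overlap. Its means were close to the dim limit, at 4.31 in controls and 5.01 in deafferented nuclei. S100a8 differed by -0.39. Of 19 such genes on the array, 12 were at or below log2 5 in all 6 arrays. Of 22 genes followed whatever their values, 20 had values and none passed, with 4 higher and 5 lower in 3 of 3 pairs. The other 2 were not analysed here.

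**Figure D5:**
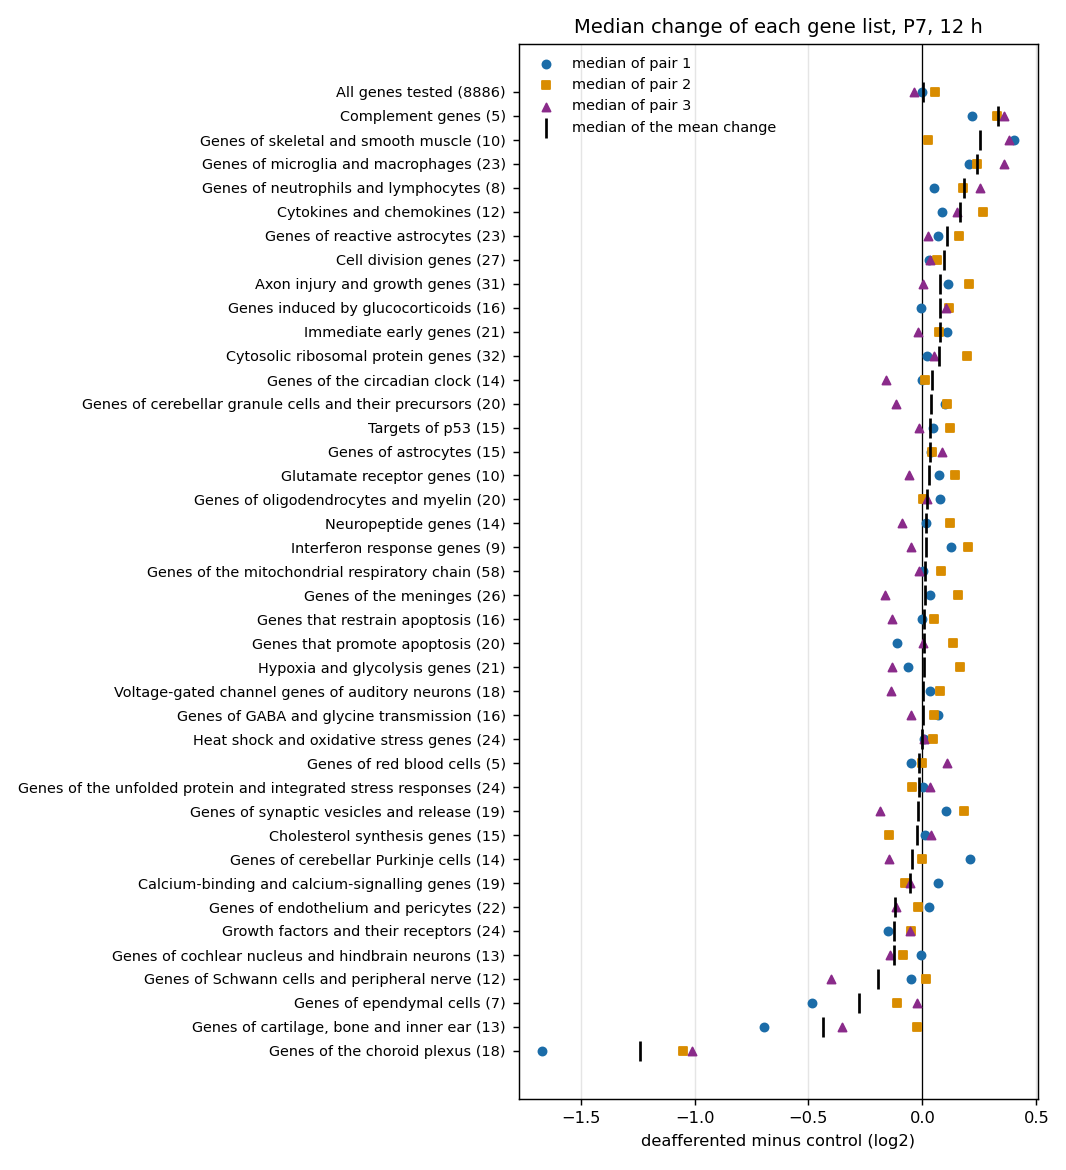
Median deafferented minus control difference in log2 units for each gene list, with the number of genes measured in brackets, a marker for the median of each pair and a black tick for the median of the mean change. The choroid plexus list lies at -1.24 and the cartilage, bone and inner ear list at -0.44, while all 8886 genes lie at 0.00 and most other lists lie within 0.3 of it.

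Set against the other times and ages, the 12 h change at P7 differed in 1 gene. The deafferented minus control change was compared between groups within the same limma fit. Against 12 h after removal at P21, 1 of 15323 probe sets passed (0.00653%). This was Ccl3, which at P21 12 h was at 3.06, 3.00 and 3.09 in controls and at 5.34, 6.09 and 4.88 in deafferented nuclei, without overlap. At P21 12 h its change of 2.38 was 1 of 4 called (0.0261%). The difference between the ages was -2.39 with a limma adjusted p of 0.0162. It was not called without deafferented array 1 or without deafferented array 2 of P7, nor without replicate 1 or replicate 3 of both sides. Leaving out control array 2 gave 7 calls, Lipf, Mmp9, Bpifa1, Car3, Col2a1 and Ctsk beside Ccl3.

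Against the 6, 24 and 48 h changes at P7, limma called 0 probe sets each, with 497, 815 and 683 at an unadjusted p under 0.05. With the pairs as a block the counts were 0, 4 and 3. Against 24 h the 4 included Ptgds, whose difference between the times was 1.02, and Bbc3, with 1.41. Against 48 h they were Slc4a2, Postn and Uhrf1, with differences of -1.78, -1.97 and -1.67. Leaving out control array 2 gave 2, 7 and 3 calls against 6, 24 and 48 h, Lipf and Bpifa1 among them each time. The choroid plexus list had a median change of -0.89 at P7 6 h and of -0.59 at P7 24 h. At P7 48 h the median was 0.69, and 12 h after removal at P21 it was 0.55. Its pair medians at P7 6 h were 0.29 and -2.22, and those at P7 24 h were -1.37, -0.85 and 0.56, so pairs differed in sign at both times.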

How the data were processed

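Values came from the deposited series matrix, 1 column of log2 values per array. Per the labels, total RNA of dissected nuclei was purified with a lipid tissue kit, labelled with biotin and hybridised to Affymetrix arrays, and per the submitters' processing notes the authors computed the log2 values with GCRMA, whose version the notes leave out. Scanner files were not used here. The number of arrays limits the precision, and p-values measure the spread between pools.

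Of the 22626 probe sets, 20380 have 1 gene symbol, 691 have several and 1555 are unnamed here. Symbols were updated through gene identifiers for 20351. A gene was represented by its tested probe set with the highest mean. Tests used limma 3.58.1 in R 4.3.3 with 16 group means, a mean-variance trend and Benjamini-Hochberg adjustment over 15323 probe sets. Arrays were paired by number, with deviations that correlated above 0.1 in all 3 pairs. That limit alone does not fix the pairing of arrays 1 and 2. Control array 2 with deafferented array 1 (0.26) and control array 1 with deafferented array 2 (0.37) also passed it. The fit was tested on simulated data. Alternatives changed the filter, the normalisation, array weights, the trend, the pairs as a block and the arrays used, and leaving out replicate 1 of both sides, or replicate 3 with the block, was chosen after seeing the data.

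Genes were named if called, called with the pairs as a block, among the 10 of each sign with the largest smallest pair difference, the 5 of each sign with the largest difference of replicate 3, the 4 smallest p of a list or the calls of a difference, or followed whatever their values. Others (Mmp9, Acp5, Mmp13, Col9a1, Otor, Ttn, Otx2, Slc4a5, Col1a1, Col3a1, Trem2, Hoxb4, Slc6a5, Barhl1, Postn, Uhrf1 and Fap) were chosen after their values were seen. The members, the 41 lists and the tests were chosen with earlier results of these data known.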

Additional observations from a re-analysis of the deposited data

Results flagged for a closer look

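Ccl3 differed between the ages. Its change at P7 12 h was -0.01 against 2.38 at P21 12 h, a difference of -2.39 that passed limma's test of the difference itself (adjusted p = 0.0162).

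For 5 lists, every pair at P7 12 h moved one way and every pair of another time or age the other way, a difference that was not tested. Of 41 lists set against 4 other groups, some will do so by chance, and all but the choroid plexus list had small medians. The choroid plexus list, at -1.24, had pair medians from -1.67 to -1.01, while those at P7 48 h ran from 0.30 to 1.46 and those at P21 12 h from 0.02 to 1.27. Muscle genes, at 0.25, had negative pair medians at P7 6 h (-0.14 to -0.10) and at P21 12 h (-0.25 to -0.09). Genes of neutrophils and lymphocytes, at 0.18, had negative pair medians at P7 6 h (-0.15 to -0.13), 24 h (-0.16 to -0.02) and 48 h (-0.25 to -0.04). Cell division genes, at 0.095, had negative pair medians at P21 12 h (-0.14 to -0.03), and genes of oligodendrocytes and myelin, at 0.019, at P7 6 h (-0.26 to -0.15).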

How the results depend on the processing

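For the change at P7 12 h, the 3 calls stayed 3 with no filter, with the filter on these 6 arrays or without the variance trend. The replicate block gave 8, the block over the 6 arrays 6 and quantile normalisation 6. Array weights gave 1 and leaving out replicate 3 of both sides gave 1. Each time this was the probe set that matches several genes, so Lipf, Car3 and Col2a1 were not called. A mean above log2 6, the 22 P7 arrays, the 6 arrays or leaving out replicate 1 of both sides gave 0 each. The filter on the mean removes Lipf, Car3 and Col2a1 before the test. Leaving out 1 array gave 0 to 9. With the block and without replicate 3, 4 were called, among them Fap and Ptgds.

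Against P21 12 h, the 1 call became 3 with array weights, 0 with no replicate 1 and 0 to 7 without 1 array. It also became 0 with the filter on the 6 arrays or the mean above log2 6, but both filters remove Ccl3 before the test. Against P7 24 h, the block gave 4 calls, or 1 without replicate 3, and leaving out 1 array gave 0 to 7. Against P7 48 h, the block gave 3 calls, or 5 without replicate 3, and leaving out 1 array gave 0 to 3. Array weights and the lack of replicate 3 gave 1 each, again the probe set that matches several genes. Against P7 6 h, leaving out 1 array gave 0 to 2. The cause of these shifts was not tested.

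Signs turned for 7 genes near 0 or led by 1 array. Without replicate 3 of both sides, with or without the block, the change was -0.21 for Bcl2, -0.42 for Cd68, -0.00173 for Calb2 and 0.00145 for Ttr. Array weights gave -0.14 for Bcl2 and -0.24 for Cd68. Without replicate 1 of both sides it was -0.070 for Calb2, 0.032 for Ccl3 and -0.085 for Gabra6. Leaving out 1 array gave -0.31 to 0.25 for Bcl2, -0.081 to 0.054 for Calb2, -0.098 to 0.095 for Ccl3, -0.19 to 0.62 for Cd68, -0.20 to 0.22 for Gabra6, -0.15 to 0.85 for Gfap and -1.09 to 0.044 for Ttr. Of 820 alternative medians of lists, 753 moved by no more than the SD over pairs. That SD could exceed the median itself, so a median could turn sign within it. Genes of cerebellar Purkinje cells, with a median of -0.05 and an SD of 0.18, ran from -0.11 to 0.11 without leaving that limit.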
